A study of Homo sapiens with 4 samples.

Results

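The Notch pathway genes form a list of 36 genes among the 26364 gene symbols of the count table. They were taken by name, by a rule with no threshold on measured values, and all 36 were in the table. In the Notch pathway, a ligand of the Jagged or Delta-like family on one cell binds a NOTCH receptor on its neighbour. ADAM metalloproteases and then the gamma-secretase complex cut the receptor, and its freed intracellular part joins RBPJ and a MAML coactivator on DNA to switch on genes of the HES and HEY families. In the endometrium the pathway is known for its part in the choice between secretory and ciliated epithelial cells and in decidualisation. The list held 4 receptors, 5 ligands, 3 Fringe glycosyltransferases, 6 processing enzymes, 4 genes of the nuclear complex, 9 HES and HEY genes and 5 modifiers.

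The cells were Ishikawa, a human endometrial adenocarcinoma line, and every library came from cells that carry Y537S, a ligand-binding domain mutation of estrogen receptor alpha (ESR1). Per the labels, 2 mutant clones were grown without hormones and then treated for 8 h with 10 nM estradiol (E2) or with its vehicle, 0.1% DMSO. Each treatment had 2 libraries, 1 from each clone, so a difference between the clones may belong to these clones alone. The column names carry a tag, A4 or B212, that the labels do not mention, so libraries are named by tag and treatment. The labels do not say whether libraries came from separate cultures, and the p-values cover only these 4 libraries. With the tag as a block, their spread is how far the E2 difference departs between the tags, with information shared across genes. Library totals ran from 71575816 to 85222856 counts.

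The gene ESR1 itself had 86.5 to 109.9 counts per 1e6 counts (CPM), and was called lower with E2 when the tag was a block in the edgeR fit, at -0.25 ± 0.070 (log2, SE, adjusted p = 0.0330). With dependence on length and GC taken out of each library as well, ESR1 was at -0.18 and not called (edgeR, adjusted p = 0.115). As a check, PGR and GREB1, both known to be induced by estrogen, were compared too. With the tag block alone they rose with E2 by 0.90 and 0.48 on the log2 scale (edgeR, adjusted p = 8.55e-04 and 0.0102). With length and GC also taken out they rose by 0.87 and 0.63. In A4 and B212 alone (log2 CPM, E2 minus DMSO), PGR was at 0.48 and 1.47 and GREB1 at 0.11 and 0.87. Of 12 epithelial markers 11 had counts, and FOXA2, a marker of endometrial glands, had 0 in every library. Markers of endothelium and leukocytes were low. The summed level was 2.38 to 5.60 CPM for 6 endothelial markers, with PECAM1 at 0, and 1.71 to 2.57 CPM for 5 leukocyte markers, with CD3E at 0.

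Of the 36 genes, 33 passed the filter on low counts and were tested among 15599 genes. The other 3 were NOTCH4, HES5 and HES7. HES5 had 0 to 3 counts and HES7 had 0 to 6 counts in a library. NOTCH4, the receptor best known from endothelium, had 0 counts in all 4 libraries. However, 16 of the 20 protein-coding genes next to it in the gene order also had 0 counts in every library, including ATF6B and RNF5, which most cells use. NOTCH4 is therefore only listed at 0, and nothing about its expression can be read from these counts. ATF6B and RNF5 were singled out after their values were seen.

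Scaled by the length of the longest transcript, the processing enzymes APH1A and NCSTN, both subunits of gamma-secretase, were highest, with 65.7 ± 4.47 and 56.6 ± 3.30 CPM per kilobase (SD over the 4 libraries). ADAM10 (44.7 ± 7.10), HES2 (42.4 ± 4.34) and HES1 (40.1 ± 6.87 CPM per kilobase) came next and lay within their spread of each other. JAG2 was the highest ligand, at 29.1 ± 6.09 CPM per kilobase, followed by JAG1 at 20.5 ± 4.78. Their intervals of 1 SD overlapped, and the median length of each gene's transcripts put JAG1 (37.3) above JAG2 (29.4). DLL1, DLL3 and DLL4 were at 0.70, 0.55 and 0.17 CPM per kilobase. Among the receptors NOTCH2 was at 19.2 ± 6.07, NOTCH1 at 13.7 ± 1.95 and NOTCH3 at 6.80 ± 2.64 CPM per kilobase. In all, 27 members reached 1 CPM per kilobase. These levels depend on which transcript is made, because the median length of a gene's transcripts put ADAM10 at 850.7 and HES2 at 186.9 CPM per kilobase, and NOTCH3 (15.3) above NOTCH1 (13.7).

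**Figure D1:**
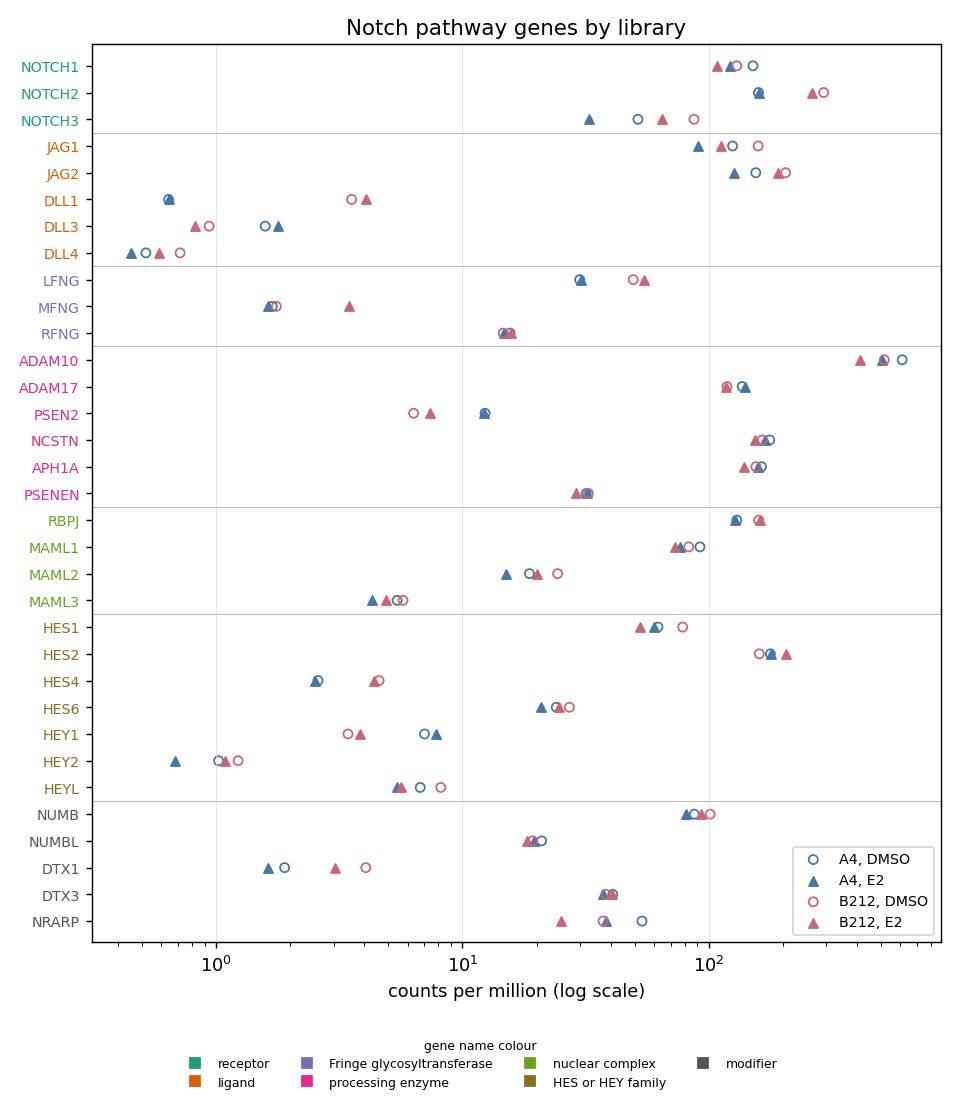
CPM on a log axis for the 33 tested Notch pathway genes, 1 point for each library (circles DMSO, triangles E2, blue A4, red B212), with gene names coloured by role. Values of a gene differ mostly by colour for DLL1, NOTCH2, LFNG, PSEN2 and HEY1, and by symbol for JAG1 and NOTCH1.

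The first comparison asked how these genes differed between E2 and DMSO in cells whose receptor is mutant. In the fit with no block, 0 of the 33 genes and 0% of all genes passed edgeR's quasi-likelihood test at the threshold of 0.05 for the Benjamini-Hochberg adjusted p. None of the 33 had an unadjusted p under 0.05 in that fit. DESeq2 and limma-voom with no block also called 0 of them. In these fits the spread within a treatment includes the whole difference between the tags. Blocked by tag, 9 of the 33 genes were called, all 9 lower with E2. They were the receptors NOTCH1 and NOTCH3, the ligand JAG1, the protease ADAM10, the coactivators MAML1 and MAML2, the targets HES1 and HEYL, and NRARP. Over all genes the same fit called 9.56%, with 3.44% lower and 6.13% higher. The median log2 fold change was -0.10 over the 33 genes and -0.0080 over all genes tested.

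The 9 genes called lower had a median transcript length of 5940 bases, against 3273 for all genes tested. HES1 (1578 bases) and NRARP (1770 bases) were shorter than that. Genes called lower across the table had a median of 5059 bases, and genes called higher had a median of 2105 bases. All members tested had a median length of 3433 bases and a median GC content of 57.5%, against 48.8% GC for all genes tested. Median GC was 55.5% for the 9 members called lower, 56.2% for genes called lower across the table and 43.1% for genes called higher. When each library's smooth dependence on transcript length and GC content (the trend) was removed in the tag-blocked fit, 5 members were called lower (NOTCH3, JAG1, ADAM10, HES1 and NRARP) and 1 higher (HES2). The share of all genes called was then 3.62%, with 1.29% lower and 2.33% higher. NOTCH1, MAML1, MAML2 and HEYL were no longer called, the edgeR adjusted p-values being 0.370, 0.432, 0.0702 and 0.140. The log2 fold changes of NOTCH1 and MAML1 went from -0.29 and -0.22 to -0.10 and -0.081, and those of MAML2 and HEYL from -0.30 and -0.43 to -0.25 and -0.32. Across 6 tag-blocked fits, NOTCH3, JAG1, ADAM10 and NRARP were called in all 6.

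Compared within each tag, 24 of the 33 genes had the same direction in both, 20 lower and 4 higher with E2, and 9 had opposite directions. Among all genes, 36.8% were lower in both tags and 33.3% higher, and 4651 of 15599 had opposite directions. The treatment groups did not overlap for 8 members, 7 lower and 1 higher with E2, where 25.0% of all genes had groups that did not overlap, with 11.8% lower. Where 1 library is left out of the tag-blocked fit, the value rests on the other tag, so the values within A4 and within B212 are given for each gene called.

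**Figure D2:**
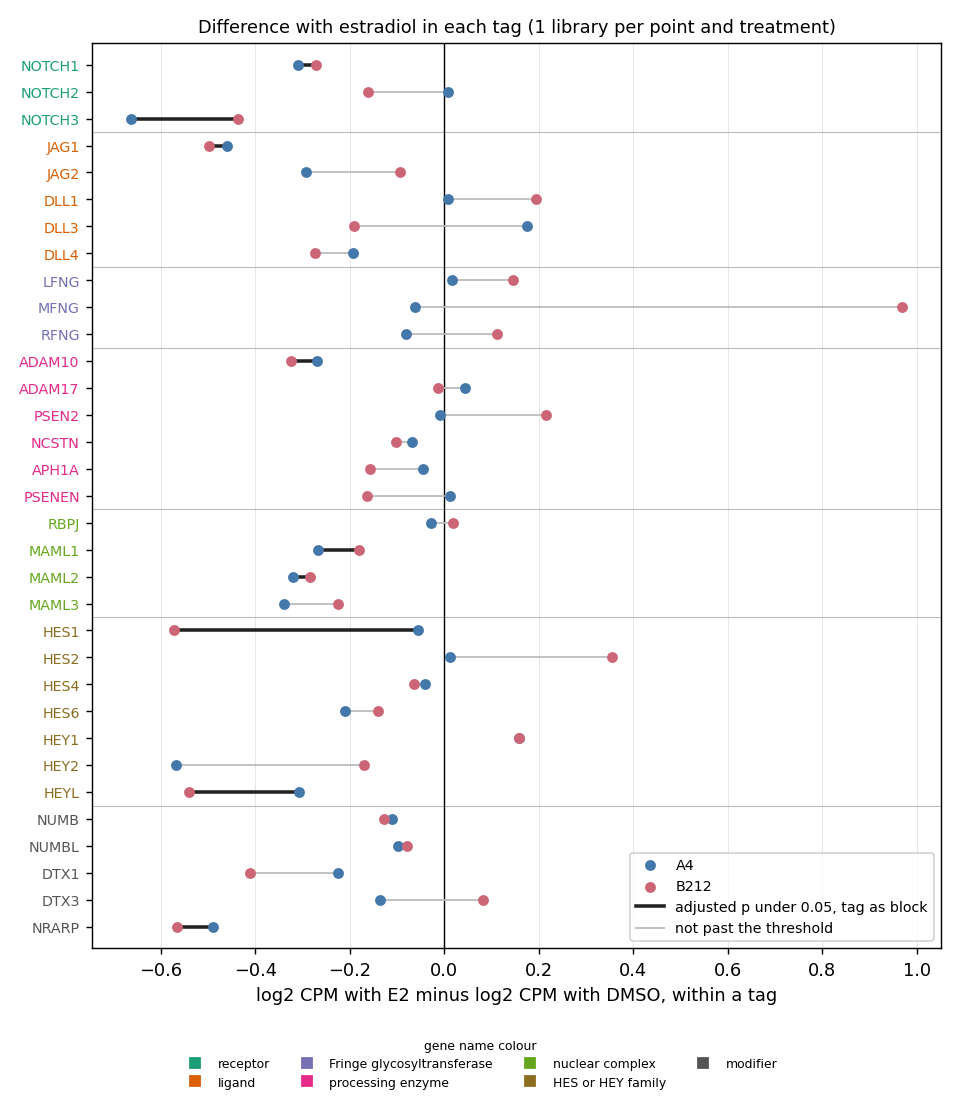
Difference in log2 CPM between E2 and DMSO within A4 (blue) and within B212 (red) for each tested Notch pathway gene, 1 library per tag and treatment. Thick dark lines join the values of the 9 genes called in the tag-blocked fit. JAG1 and NRARP have nearly equal values in both tags, while HES1 was at -0.056 in A4 and -0.57 in B212.

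NOTCH3, a receptor known mainly from smooth muscle and from several carcinomas, had 51.6 CPM (A4) and 87.1 CPM (B212) with DMSO and 32.6 and 64.4 CPM with E2. In each tag the E2 library was the lower, and the treatment groups overlapped because B212 was above A4. Its log2 fold change was -0.55 ± 0.078 (SE) in the tag-blocked fit (edgeR, adjusted p = 4.42e-04). Within A4 it was -0.66 and within B212 -0.44. Without the length and GC trend it was -0.36 (edgeR, adjusted p = 0.00587). NOTCH1, whose protein is a widely used receptor of the pathway, had 151.2 and 130.0 CPM with DMSO and 122.0 and 107.7 CPM with E2 in A4 and B212. Both E2 libraries were below both DMSO libraries. The log2 fold change of NOTCH1 was -0.29 ± 0.069 SE (edgeR, adjusted p = 0.0127), and -0.10 with the trend removed. Within the tags it was -0.31 (A4) and -0.27 (B212). NOTCH2 was not called, at -0.078 ± 0.072.

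JAG1, the Jagged ligand that is also a known target of Notch signalling, had 125.0 CPM (A4) and 158.8 CPM (B212) with DMSO and 90.9 and 112.5 CPM with E2. The 2 E2 libraries lay below the 2 DMSO libraries. The log2 fold change in the tag-blocked fit was -0.48 ± 0.069 SE (edgeR, adjusted p = 5.02e-04), and the values within the tags were -0.46 (A4) and -0.50 (B212). Without the trend it was -0.38 (edgeR, adjusted p = 0.00454). The other ligands were not called. JAG2 was at -0.19 ± 0.072, and DLL1, DLL3 and DLL4 had 37 to 303 counts in a library and standard errors of 0.18 to 0.29.

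Of the processing enzymes, ADAM10, the protease that makes the first cut in a ligand-bound receptor, was the one called. It had 610.5 and 516.1 CPM with DMSO and 506.7 and 412.0 CPM with E2 in A4 and B212. The groups did not overlap. Its log2 fold change was -0.30 ± 0.072 (SE) in the tag-blocked fit (edgeR, adjusted p = 0.0141), and -0.32 with the trend removed. Within the tags it was -0.27 (A4) and -0.32 (B212). ADAM17, the related sheddase, was at 0.015 ± 0.069, and the gamma-secretase genes PSEN2, NCSTN, APH1A and PSENEN ran from -0.10 to 0.097 without a call.

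In the nuclear complex, the DNA-binding factor RBPJ had 130.1 and 159.6 CPM with DMSO and 127.5 and 161.6 CPM with E2, a log2 fold change of -0.0050 ± 0.069 (SE). It was close to level across treatments in both tags. The coactivators MAML1 and MAML2 fell by 0.22 ± 0.070 and 0.30 ± 0.086 on the log2 scale in the tag-blocked fit, the edgeR adjusted p-values being 0.0487 and 0.0332. Neither was called with DESeq2 size factors, with DESeq2 or with the trend removed. Their values within the tags were -0.27 and -0.18 for MAML1 and -0.32 and -0.28 for MAML2, in A4 and B212. MAML3 was at -0.28 ± 0.12 and was not called.

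The HES and HEY genes encode basic helix-loop-helix repressors, and HES1 and HEYL are among those that the RBPJ complex is known to switch on. Windows around the start sites, from 250 bases before to 50 from the start on, were found for 30 of the 36 genes in the RefSeq promoter table (GRCh38.p14). The letters TGGGAA, the core of the RBPJ motif, were searched on both strands, and an occurrence describes letters, not binding. They stood in 5 of the 8 HES and HEY windows (HES1, HES4, HES5, HEY2 and HEYL), in 7 of the 30 windows of all members, and in 24.3% of 27305 windows of that length. The 200 bases before the start are given 5′ to 3′ on the gene's strand, with the core in capitals (TTCCCA on the other strand). They are shown for 4 genes with a core and for 2 without one whose values the results turn on, HES2 and NRARP.
HES1 (chr3:194135948-194136147, plus strand): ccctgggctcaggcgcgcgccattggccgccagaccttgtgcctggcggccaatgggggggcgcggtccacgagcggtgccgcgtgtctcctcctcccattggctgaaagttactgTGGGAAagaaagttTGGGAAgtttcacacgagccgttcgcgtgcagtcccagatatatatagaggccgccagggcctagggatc
HEYL (chr1:39639644-39639843, minus strand): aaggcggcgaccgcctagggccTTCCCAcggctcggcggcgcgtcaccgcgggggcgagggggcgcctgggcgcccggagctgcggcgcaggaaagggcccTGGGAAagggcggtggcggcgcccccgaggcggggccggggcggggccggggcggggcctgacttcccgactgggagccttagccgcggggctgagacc
HES4 (chr1:1000098-1000297, minus strand): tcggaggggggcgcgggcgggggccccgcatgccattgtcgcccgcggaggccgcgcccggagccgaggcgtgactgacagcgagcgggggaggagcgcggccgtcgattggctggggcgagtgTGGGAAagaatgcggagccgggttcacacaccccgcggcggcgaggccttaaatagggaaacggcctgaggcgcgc
HES5 (chr1:2530264-2530463, minus strand): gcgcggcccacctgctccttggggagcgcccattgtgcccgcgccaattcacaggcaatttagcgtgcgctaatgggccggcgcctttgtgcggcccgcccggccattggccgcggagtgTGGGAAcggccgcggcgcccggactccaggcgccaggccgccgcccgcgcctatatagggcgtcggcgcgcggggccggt
HES2 (chr1:6419920-6420119, minus strand): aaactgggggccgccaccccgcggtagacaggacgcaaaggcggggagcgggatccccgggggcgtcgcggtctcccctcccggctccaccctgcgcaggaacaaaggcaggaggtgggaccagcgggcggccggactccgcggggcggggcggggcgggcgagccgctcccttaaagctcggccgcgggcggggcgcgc
NRARP (chr9:137302272-137302471, minus strand): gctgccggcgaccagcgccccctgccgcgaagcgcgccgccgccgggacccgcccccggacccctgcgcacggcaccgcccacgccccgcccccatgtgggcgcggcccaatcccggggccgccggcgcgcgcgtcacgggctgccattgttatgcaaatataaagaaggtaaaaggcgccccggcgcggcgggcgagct
Counted from the start site, the cores of HES1 begin at -84 and -70, on the same strand. The core of HES4 begins at -76, that of HES5 at -80, and those of HEYL at -178 (other strand) and -99. HES5 has another at -224, before the stretch printed. The estrogen response element, GGTCA and TGACC with 3 bases between them, stood in 0 of the 30 member windows and in 0.1% of all windows.

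HES1, with 2 cores on the same strand in its window, had 62.2 CPM (A4) and 78.4 CPM (B212) with DMSO and 59.9 and 52.8 CPM with E2. Both E2 libraries were below both DMSO libraries, but by little in A4. The log2 fold change of HES1 was -0.31 ± 0.093 (SE) in the tag-blocked fit (edgeR, adjusted p = 0.0380). It was -0.056 within A4, the value without either B212 library, and -0.57 within B212. Without the trend it was -0.41 (edgeR, adjusted p = 0.0195), while DESeq2 gave 0.0938 and DESeq2 size factors in edgeR 0.0903.

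HEYL had 6.75 and 8.18 CPM with DMSO and 5.45 and 5.62 CPM with E2 in A4 and B212. The groups did not overlap, and the B212 DMSO library stood highest. The log2 fold change of HEYL was -0.43 ± 0.12 SE (edgeR, adjusted p = 0.0287), and its values within the tags were -0.31 (A4) and -0.54 (B212). With DESeq2 size factors its adjusted p-value was 0.0554 by edgeR. HES4, HES6 and HEY2 had log2 fold changes of -0.053, -0.17 and -0.36 and were not called.

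HES2, a HES family repressor with no RBPJ core in its window, was the most abundant HES or HEY gene by counts, with 13035 to 15060 counts in a library. It had 178.0 and 160.5 CPM with DMSO and 179.6 and 205.4 CPM with E2 in A4 and B212. A4 was level and the B212 E2 library was highest. The log2 fold change was 0.18 ± 0.079 (SE) in the tag-blocked fit (edgeR, adjusted p = 0.145). Without the trend it was 0.31 (edgeR, adjusted p = 0.0174). It was 0.013 within A4 and 0.36 within B212. HEY1 was not called, with 0.16 in both tags.

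NRARP, a Notch-induced small ankyrin protein that dampens the pathway by acting on the cut receptor, had 53.6 CPM (A4) and 37.2 CPM (B212) with DMSO and 38.2 and 25.1 CPM with E2. E2 was lower in each tag, and A4 with E2 was close to B212 with DMSO. Its log2 fold change was -0.53 ± 0.078 (SE) in the tag-blocked fit (edgeR, adjusted p = 6.53e-04), and it was -0.53 with the trend removed. Within the tags it was -0.49 (A4) and -0.57 (B212). The endocytic adaptors NUMB and NUMBL, which hold Notch back, and the ubiquitin ligases DTX1 and DTX3 were not called, with log2 fold changes of -0.33 to -0.026.

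**Figure D3:**
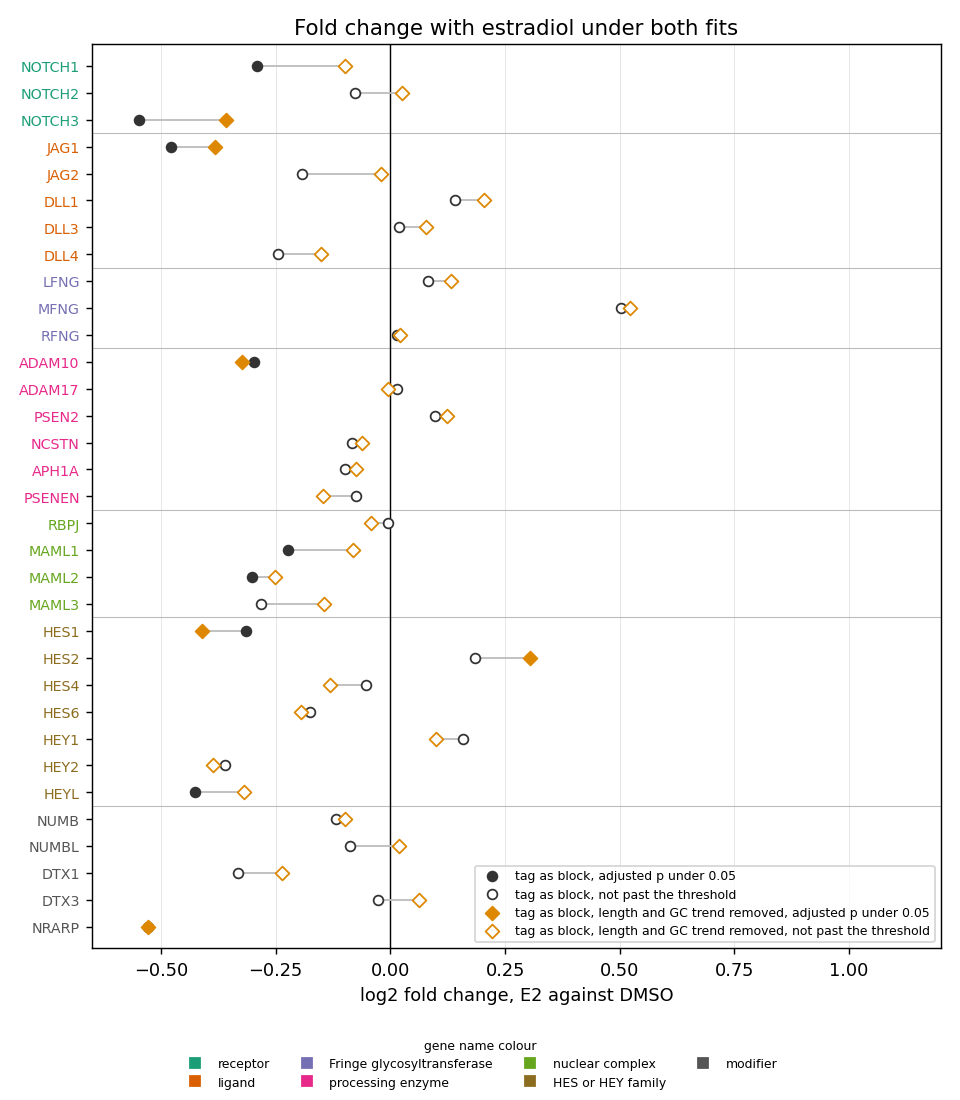
Log2 fold change with E2 in the tag-blocked fit (circles) and with the dependence on length and GC also taken out (diamonds) for each tested Notch pathway gene, filled where the edgeR adjusted p was under 0.05. NOTCH3, JAG1, ADAM10, HES1 and NRARP are filled in both fits, NOTCH1 moves from -0.29 to -0.10, and HES2 is filled only with the trend removed.

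A list of 45 other genes of the pathway, with ligand handling, receptor turnover and nuclear cofactors, had 40 members tested. Blocked by tag, 4 were called, all lower with E2, which is 10.0% of those tested, where 9.56% of all genes were called and 3.44% were lower. They were TLE1 (-0.41 ± 0.11), NEURL1B (-0.31 ± 0.081), TLE3 (-0.31 ± 0.075) and FURIN (-0.28 ± 0.073, log2, SE). TLE1 and TLE3 are corepressors that HES proteins recruit, NEURL1B is a ligase for the ligands, and FURIN makes the maturing cut in the receptor. Their edgeR adjusted p-values were 0.0146 to 0.0251. None of the 4 was called with the trend removed, and that fit called 0 of the 40, with 5 at an unadjusted p under 0.05 by edgeR.

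The second comparison set B212 against A4 and adjusted for treatment, and describes only the cells behind these tags. Of the 33 genes, 20 were called by edgeR, 13 higher and 7 lower in B212, where 51.0% of all genes were called, with 25.2% higher and 25.8% lower. With library sizes alone as the scaling, all genes split into 4761 higher and 3176 lower and the members into 13 and 5. The tag groups did not overlap for 22 members, where 67.5% of all genes did not. Calls whose log2 fold change was 1 or more in either direction numbered 3 among the members (DLL1, HEY1 and DTX1) and made up 11.0% of all genes. The median log2 fold change was 0.14 over the 33 genes and 0.0040 over all genes.

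DLL1, a Delta-like ligand, differed most in size among the members. It had 47 and 53 counts in the A4 libraries (DMSO and E2) and 303 and 298 in the B212 libraries, or 0.64, 0.65, 3.55 and 4.07 CPM. The log2 fold change was 2.56 ± 0.19 SE (edgeR, adjusted p = 6.60e-10). DLL3, a divergent ligand that does not activate receptors on neighbouring cells, was lower in B212, with 1.58 and 1.79 CPM in A4 and 0.94 and 0.82 CPM in B212 and a log2 fold change of -0.94 ± 0.22. The Jagged ligands were higher in B212, JAG2 by 0.50 ± 0.072 and JAG1 by 0.33 ± 0.069 on the log2 scale, the edgeR adjusted p-values being 9.43e-06 and 5.01e-04. DLL4 was not called.

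The receptors went both ways between the tags. NOTCH2 had 159.2 and 159.9 CPM in A4 and 292.8 and 261.6 CPM in B212 (DMSO and E2), a log2 fold change of 0.79 ± 0.072 SE (edgeR, adjusted p = 1.71e-08). NOTCH3 was higher in B212 by 0.87 ± 0.078 (edgeR, adjusted p = 1.46e-08). Its lowest B212 library, at 64.4 CPM, was above its highest A4 library, at 51.6 CPM. NOTCH1 was lower in B212, with a log2 fold change of -0.20 ± 0.068 (edgeR, adjusted p = 0.0202) and overlapping groups, and it was not called by DESeq2 or with library sizes alone. NOTCH2 shares sequence with the NOTCH2NL copies, and 5.84% of the 32-base words of its transcript occur in another gene. The symbol NOTCH2NL itself had 910 and 1033 counts in A4 and 1592 and 1316 counts in B212.

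LFNG and MFNG add a sugar to the receptors that shifts which ligands they answer to, and both were called higher in B212. LFNG had 29.9 and 30.3 CPM in A4 and 49.4 and 54.6 CPM in B212, a log2 fold change of 0.79 ± 0.079 SE (edgeR, adjusted p = 7.16e-08). The MFNG call rested on 1 library. It had 1.69 and 1.62 CPM in A4 and 1.76 CPM in the B212 DMSO library, against 3.47 CPM in the B212 E2 library. Its log2 fold change of 0.60 ± 0.21 (edgeR, adjusted p = 0.0193) was 0.053 between the DMSO libraries, the value without the B212 E2 or the A4 E2 library. DESeq2 did not call MFNG (adjusted p = 0.178). RFNG was not called, at 0.0040 ± 0.094.

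All 6 processing enzymes had log2 fold changes below 0 in B212, except that PSENEN was at 0.0080 with library sizes alone, and 3 were called. PSEN2, a catalytic subunit of gamma-secretase, had 12.4 and 12.3 CPM in A4 and 6.34 and 7.37 CPM in B212, a log2 fold change of -0.85 ± 0.11 SE (edgeR, adjusted p = 1.71e-06). ADAM10 and ADAM17 were lower by smaller amounts, at -0.27 ± 0.072 and -0.23 ± 0.069, and the ADAM17 call was lost with library sizes alone (adjusted p-value of 0.0536 by edgeR). ADAM17 shares 28.0% of its 32-base words with IAH1. RBPJ was higher in B212 by 0.32 ± 0.069 and MAML2 by 0.40 ± 0.086.

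Of the HES and HEY genes, HEY1 and HES4 had the largest called differences. HEY1 had 7.02 and 7.84 CPM in A4 and 3.43 and 3.83 CPM in B212, a log2 fold change of -1.03 ± 0.12 SE (edgeR, adjusted p = 8.14e-07). HES4 had 2.59 and 2.52 CPM in A4 and 4.59 and 4.39 CPM in B212, a log2 fold change of 0.81 ± 0.14 (edgeR, adjusted p = 7.51e-05). HES6 was higher by 0.21 ± 0.083 (edgeR, adjusted p = 0.0390), and that call was held by 4 of 9 fits. HES1, HES2, HEY2 and HEYL were not called between the tags, at 0.078 ± 0.093, 0.023 ± 0.079, 0.46 ± 0.23 and 0.17 ± 0.12.

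Among the modifiers, DTX1, a ubiquitin ligase that binds the cut receptor, had 1.90 and 1.62 CPM in A4 and 4.05 and 3.04 CPM in B212. On the log2 scale DTX1 differed by 1.00 ± 0.16 SE (edgeR, adjusted p = 2.78e-05). NRARP was lower in B212, at -0.56 ± 0.078 (edgeR, adjusted p = 5.67e-06), and NUMB higher, at 0.21 ± 0.069, a call held by 6 of 9 fits and lost with DESeq2 (adjusted p = 0.0862). Of the 9 genes called lower with E2, 6 were also called between the tags, where 51.0% of all genes were called. NOTCH3, JAG1 and MAML2 were lower with E2 and higher in B212, while NOTCH1, ADAM10 and NRARP were lower with E2 and lower in B212.

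**Figure D4:**
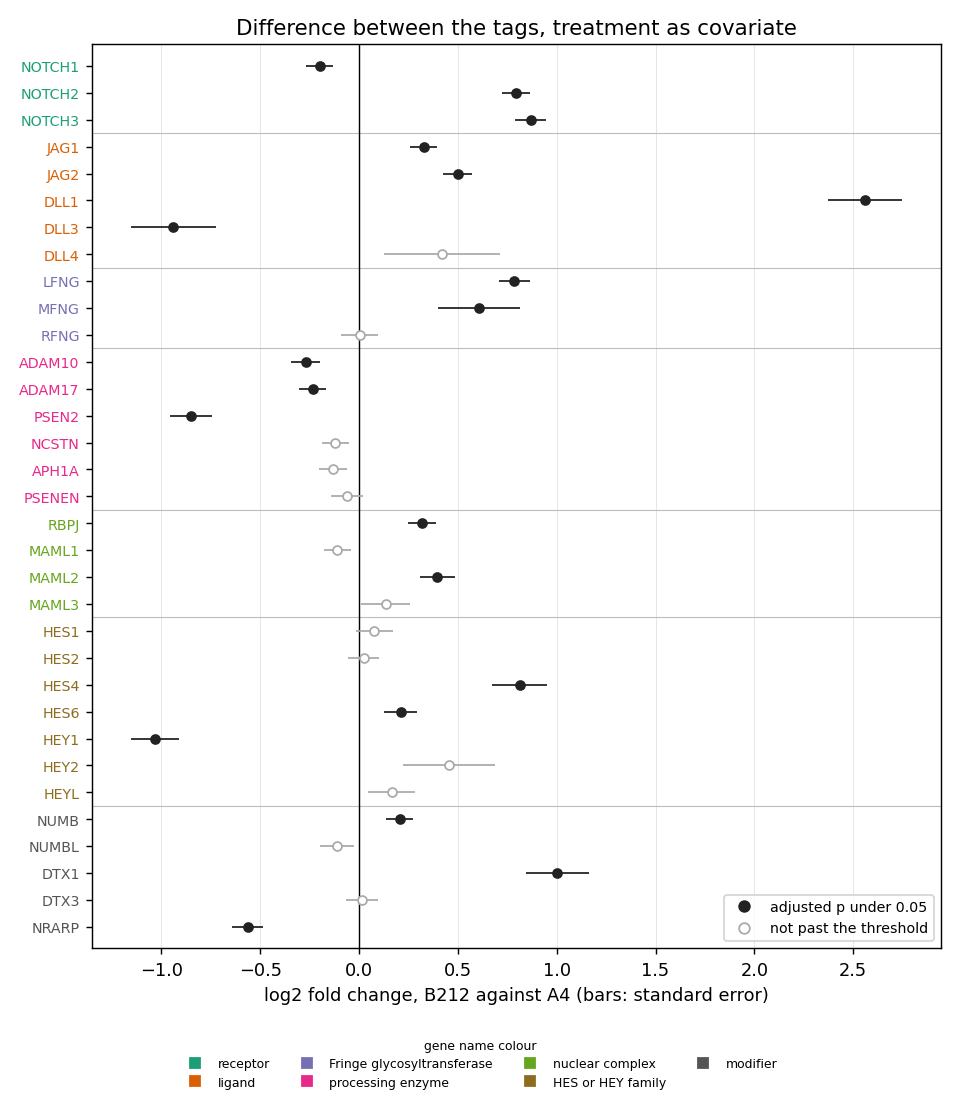
Log2 fold change of B212 against A4 with its standard error for each tested Notch pathway gene, with treatment as a covariate, filled where the edgeR adjusted p was under 0.05. DLL1 lies far to the right at 2.56, and HEY1, DLL3 and PSEN2 lie below -0.8.

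Of the 40 other pathway genes tested, 18 were called between the tags, 11 higher and 7 lower in B212. This was 45.0%, below the 51.0% of all genes called, with a median log2 fold change of -0.0040. With the trend removed 22 were called, 9 higher and 13 lower, the latter 32.5% of those tested. That fit called 56.9% of all genes, 3621 higher and 5260 lower, so 33.7% of all genes were lower. The balance of directions moved the same way over all genes, whose median log2 fold change was then -0.053. BHLHE41, a HES-related repressor, was higher in B212 by 3.60 ± 0.20 and TLE1 by 3.04 ± 0.12 (log2, SE). L3MBTL3, which acts with RBPJ as a repressor, was higher by 0.82 ± 0.076 and NEURL1B by 0.68 ± 0.081. KAT2A and TLE3 were lower, at -0.43 ± 0.075 each. The largest edgeR adjusted p-value of these 6 was that of TLE3, 7.66e-05.

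Markers of other cell types also moved with the tag. The 8 markers of ciliated epithelium all had counts and summed to 11.5 to 14.2 CPM in A4 and 45.5 to 46.0 CPM in B212, with 4 of 7 tested called higher. Most of the rise came from CAPS, with 1.5 and 1.6 CPM in A4 and 20.1 and 24.5 CPM in B212, and from FOXJ1. RSPH1 and CCDC78, also called higher, had 3 to 49 counts in a library. PIFO, TPPP3 and MCIDAS were not called, at 0.305, -0.10 and -0.046 (log2). Of the tested epithelial markers 7 of 11 were called higher in B212, of the endothelial 3 of 3, and of the leukocyte 0 of 2, where 25.2% of all genes were higher. Only 3 of the 6 endothelial markers passed the filter, and of these KDR and CLDN5 had 3 to 52 counts in a library. With E2, the tag-blocked fit called 3 of 11 epithelial and 2 of 3 endothelial markers lower, 1 of 6 stromal markers lower and 0 of the leukocyte markers, where 3.44% of all genes were lower. With the trend removed these became 1 of 11, 0 of 3 and 0 of 6. FOXJ1, the regulator of motile cilia, had 6.95 and 3.62 CPM in A4 and 18.9 and 14.2 CPM in B212. Of the 7 ciliated markers tested, the tag-blocked fit called 1 lower and 1 higher with E2, also with the trend removed. FOXJ1 was the lower one, at -0.64 ± 0.12 SE (edgeR, adjusted p = 0.00332). CCDC78, a gene of centriole multiplication in ciliated cells, was the higher one, at 2.40 ± 0.47 SE (edgeR, adjusted p = 0.00477), from 3 and 10 counts with DMSO and 15 and 49 counts with E2 in A4 and B212. The 9 stromal markers summed to 96.2 to 132.6 CPM in A4 and 38.6 to 46.7 CPM in B212, nearly all of it from COL1A1, and VIM had 0 to 30 counts. Of the 6 tested, 4 were called lower and 1 higher in B212, where 25.8% of all genes were lower and 25.2% higher. THY1 was the higher one, with 1.19 and 1.38 CPM in A4 and 3.40 and 3.19 CPM in B212. COL1A1 was the stromal marker called lower with E2, at -0.39 ± 0.074. In bulk RNA, fewer cells of a kind and less RNA per cell cannot be told apart, and the part of these markers in the Notch gene differences was not tested.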

How the data were processed

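Poly(A)-selected RNA of 4 libraries was sequenced from stranded libraries, per the labels' protocols. The authors deposited whole-number read counts by gene symbol, not normalized. Per the submitters' processing notes, HISAT2, SAMtools, featureCounts and DESeq2 were used with build hg19. Versions, strand setting and annotation are not given in the sources used here, so genes that overlap or share sequence are uncertain. Of the members, NOTCH2, JAG2, ADAM17, PSENEN, MAML2 and HES2 shared over 5% of their 32-base words with another GENCODE 29 gene. Columns that could not be matched to these samples (4) were left out.

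Genes were kept by filterByExpr of edgeR 4.0.16 (minimum count 10), scaled by TMM and tested by its quasi-likelihood test with Benjamini-Hochberg adjustment over all genes, at a threshold of 0.05. Standard errors are the absolute log2 fold change over the square root of F. CPM used TMM-scaled library sizes, and log2 CPM a prior count of 2. The planned E2 fit had no block. The labels give the same clone numbers in both treatments, and 1 DMSO and 1 E2 column share each tag, which pairs the libraries. The tags could not be tied to the clone numbers. Same-tag deviations from the group means correlated across genes at r = 0.871, a single independent value with 2 groups of 2. Alternatives used DESeq2 1.42.0, limma 3.58.1, and mgcv 1.9.3 for a trend on length and GC content, known for 96.6% of tested genes. R 4.3.3, Python 3.11.15 and matplotlib 3.10.9 were used.

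On simulated counts with tag differences as measured, of 200 genes changed by 1 (log2) among 15458, the E2 fit recovered 0 with no block and 175 with the block, with 16 false calls. The simulated noise was that of the tag-blocked fit. The members and lists were chosen with earlier results of these data known. All 36 members are accounted for, with full statistics for those called, and other lists contribute at most 6 called genes per comparison by smallest p-value. Promoter windows came from RefSeq (GRCh38.p14), while the counts carry no coordinates. One further marker list is not reported here.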

Additional observations from a re-analysis of the deposited data

Results flagged for a closer look

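For 9 of the 33 tested Notch pathway genes, the difference between E2 and DMSO had opposite signs in A4 and B212. The same held for 4651 of all 15599 genes tested, a similar share. With 1 library for each tag and treatment, these differences between the tags were not tested. MFNG stood out in size, at -0.062 in A4 and 0.97 in B212 (log2 CPM, E2 minus DMSO), a difference of 1.03, from 124 and 133 counts in A4 and 150 and 254 counts in B212. DLL3 was at 0.18 and -0.19 in A4 and B212, with 60 to 147 counts in a library, and its B212 value minus its A4 value was -0.36. That same difference was 0.23 for PSEN2, 0.22 for DTX3 and 0.19 for RFNG. It was -0.17 for NOTCH2 and -0.17 for PSENEN. For RBPJ it was 0.05 and for ADAM17 -0.05, where both tags lay close to 0.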

How the results depend on the processing

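With no block, E2 called 0 genes and 0 Notch members under both other scalings, both other filters, limma-voom and each fit without 1 library (0 to 0), and DESeq2 called 1 gene and 0 members. At an unadjusted p under 0.05, edgeR had 150 genes and 0 members in the planned fit, and the alternatives with no block had 65 to 225 genes and 0 to 2 members. A replicate block on the tag gave 1492 genes and 9 members. With the block, the counts were 565 and 6 without the length and GC trend, 562 and 5 with DESeq2, 717 and 5 with DESeq2 size factors, 1138 and 7 with limma-voom, and 1686 and 9 with library sizes alone. The last was chosen after the data were seen and split all genes into 911 higher and 775 lower, against 956 and 536. On simulated counts that held the measured tag differences, the fit with no block found 0 of 200 genes changed by 1 (log2). Their noise was that of the tag-blocked fit, so they cannot show why calls changed in the data. The causes of the changes in calls between fits were not tested. The 10 members with E2 statistics kept their sign in every fit run, those without 1 library included, where the fit with no block gave -1.09 to -0.11 for NOTCH3 and -0.86 to -0.23 for NRARP. DESeq2 gave no adjusted p-value for HEYL. Between the tags, 7950 genes and 20 members became 4456 and 11 with no treatment term and 1723 and 3 where the log2 fold change also had to reach 1 in either direction; the other 7 alternatives gave 16 to 20 members, and no called member changed sign. Leaving out 1 library leaves that comparison no residual degree of freedom, so it gave values but no counts. Low counts limited DLL1, DLL3, DLL4, HEY2, MFNG and DTX1.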

Other observations

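A list of 18 genes reported elsewhere as Notch targets outside the HES and HEY families had 14 tested. In the tag-blocked fit edgeR called 2 of them, both lower with E2: the receptor tyrosine kinase gene ERBB2 (-0.27 ± 0.069, log2, SE) and the cyclin gene CCND1 (-0.25 ± 0.076), with adjusted p-values of 0.0180 and 0.0453. In that fit 9.56% of all genes were called and 3.44% were lower. Neither was called with the length and GC trend removed (edgeR adjusted p-values of 0.195 and 0.137). That fit called 1 of the 14, ID1, lower at -0.30 (edgeR, adjusted p = 0.0315), where 3.62% of all genes were called and 1.29% were lower. Within the tags ID1 was at -0.065 (A4) and -0.40 (B212), and the tag-blocked fit alone did not call it (edgeR, adjusted p = 0.0746). MYC was at 0.16 in A4 and -0.14 in B212, with 7607 to 10377 counts in a library, and was not called.

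Between the tags 8 of the 14 were called by edgeR, 3 higher and 5 lower in B212, where 51.0% of all genes were called. The cell cycle inhibitor gene CDKN1A was higher, with 20.4 and 20.6 CPM in A4 and 41.6 and 43.2 CPM in B212. ID3 was lower, with 5.57 and 5.83 CPM in A4 and 2.73 and 2.20 CPM in B212. SNAI2, a regulator of epithelial to mesenchymal change, had 27 and 48 counts in A4 and 0 counts in both B212 libraries.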
